A study of Rattus norvegicus with 6 samples.

Results

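The 10 genes described here mark macrophages: C1qa, C1qb, C1qc, Cd68, Ptprc, Csf1r, Lyz2, Tyrobp, Fcer1g and Laptm5. They were picked by name, with earlier results of these data known, and all 10 were found among the 28656 gene names of the deposited transcript abundances. The samples were pancreatic islet cells of Wistar rats aged 12 weeks, dissociated with trypsin and transfected with an antisense oligonucleotide (gapmeR) 48 h before RNA was taken. 3 libraries received a control gapmeR and 3 received a gapmeR against ci-Ins2, a circular RNA made from an intron of the insulin gene Ins2. The rats were males, and the labels name no altered allele and no other agent. A library of each group shared a replicate number. The study states that, for rat islet cells, all groups of a replicate stem from one animal. The labels name no animal, and libraries with the same number were taken to come from the same one. Animals 1, 2 and 3 are thus said to have each given a control and a ci-Ins2 library. The libraries were made from poly-A RNA, so ci-Ins2 itself, which has no poly-A tail, was not measured. The comparison addresses which genes of the islet's resident macrophages differ in level after the gapmeR against ci-Ins2. The oligonucleotides are shown because they are the sole difference in treatment between the groups.
control gapmeR: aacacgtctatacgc
rat ci-Ins2 gapmeR: gcttacagacacatag

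Islets hold resident macrophages that lie close to beta cells and vessels, take up dying cells and granule content, and present antigen. Macrophages depend on the CSF1 receptor for survival, and they are a main source of C1q, the recognition part of the classical complement pathway, which is assembled from A, B and C chains. Tyrobp and Fcer1g are small adaptor proteins that carry signals from activating receptors through the kinase Syk. In a preparation dominated by endocrine cells, transcripts of this kind report a minor cell type. The data are from whole cell preparations, so fewer macrophages and less RNA per macrophage cannot be told apart.

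Every marker was detected in all 6 libraries, at low levels. Values are given on a scale on which each library has the same sum (that of TPM). The unit is not named and was taken to be TPM, which is corrected for transcript length. Comparing levels of different genes rests on that assumption. Mean levels over the 6 libraries ran from 15.7 for C1qa, 8.45 for Lyz2 and 5.08 for C1qc, through 4.69 for Fcer1g, 3.89 for C1qb, 3.16 for Csf1r and 2.76 for Tyrobp, to 1.26 for Ptprc, 1.12 for Laptm5 and 0.798 for Cd68. C1qa thus ranked 6374 of 28656 names and Cd68 ranked 14316. By comparison, Ins1 and Ins2 together made up 15.3 to 15.9% of each library, so the labelled cell type was plain in the data. Among the other defining macrophage genes, Adgre1 (F4/80) lay between 0.311 and 0.983, Aif1 (Iba1) between 0.824 and 6.58 and Cx3cr1 between 0.021 and 0.187. Mpeg1, also a defining gene, was not among the deposited gene names. Neighbouring genes in the order of levels overlapped across libraries, except that every library's value of Tyrobp (at least 1.84) lay above every value of Ptprc (at most 1.74). Within the control group alone, the highest library exceeded the lowest by 1.39-fold for Ptprc to 2.51-fold for Tyrobp.

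Summed over the 10 markers, the level was 41.1, 54.5 and 69.4 in the control libraries of animals 1, 2 and 3 and 25.6, 37.4 and 53.4 in the ci-Ins2 libraries. Animals differed as much as treatments did, and the ci-Ins2 library of animal 3 stood above the control library of animal 1. Within each animal the ci-Ins2 library was the lower one, by 37.7% in animal 1, 31.3% in animal 2 and 23.0% in animal 3. The geometric mean of the 3 ratios was 0.690. Leaving out C1qa, the most abundant marker, gave 0.663, and leaving out both libraries of 1 animal gave 0.654 to 0.727. No test was made on the sum, because the genes were chosen with earlier results of these data known.

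Of the 30 comparisons of a marker within an animal, 28 gave a lower value in the ci-Ins2 library. The exceptions were Tyrobp in animal 1 (ratio 1.15) and Laptm5 in animal 3 (ratio 1.12). 8 of 10 markers were lower in all 3 animals, and the same count was found after the libraries were scaled by size factors. Of the 14952 gene names with a mean of at least 0.5 and a value above 0 in every library, 20.7% were lower in all 3 animals as deposited and 27.5% after scaling. For none of the 10 markers were the groups without overlap, against 9.07% of those names with every ci-Ins2 library below every control library. In each group 9 of 10 markers were highest in animal 3, and in the ci-Ins2 group 7 of 10 were lowest in animal 1.

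**Figure D1:**
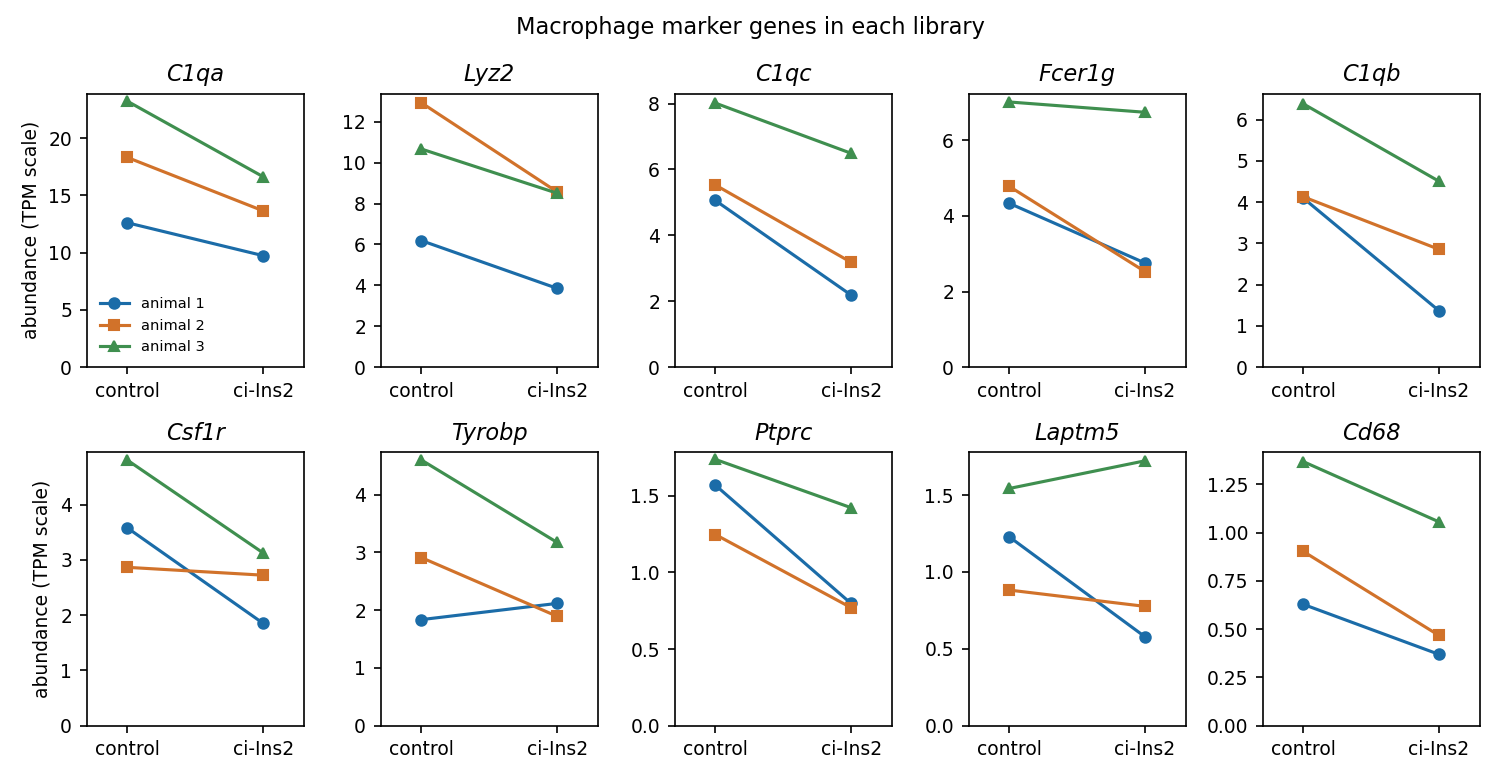
Abundance (TPM scale, linear axis from 0) of each of the 10 markers in the control and the ci-Ins2 library of animals 1, 2 and 3; a line joins the libraries of an animal. 28 of 30 lines fall, and the exceptions are Tyrobp in animal 1 and Laptm5 in animal 3.

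Each gene was tested with limma on log2(value + 1), a scale that understates changes of low genes, with Benjamini-Hochberg adjustment over the 13927 names that reached 1 in at least 3 of the 6 libraries. Cd68 reached 1 in 2 libraries and was not tested. Ptprc reached it in 4 libraries and Laptm5 in 3, and the other 7 markers in all 6. When the groups were compared without regard to the animal, none of the 9 tested markers was called lower or higher at an adjusted p under 0.05, while 3.5% of all names tested were called lower and 1.01% higher. 1 marker, Ptprc, had an unadjusted p under 0.05, as had 20.5% of all names tested. All 9 log2 fold changes were negative, with a median of -0.44 against 0.00 over all names tested, where 49.4% were negative. When the animal was entered as a block, 4 of 9 markers were called lower (C1qa, C1qb, C1qc and Lyz2) and none higher, against 10.3% and 5.23% of all names. 7 of 9 then had an unadjusted p under 0.05, against 33.9% of all names. Because the filter can keep a gene through the group where it is high, the blocked comparison was repeated on names with a mean of at least 0.5 over all 6 libraries. This kept all 10 markers and called the same 4 genes lower, against 8.74% of 15068 names. All 10 log2 fold changes were negative on these names, Cd68 included.

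**Figure D2:**
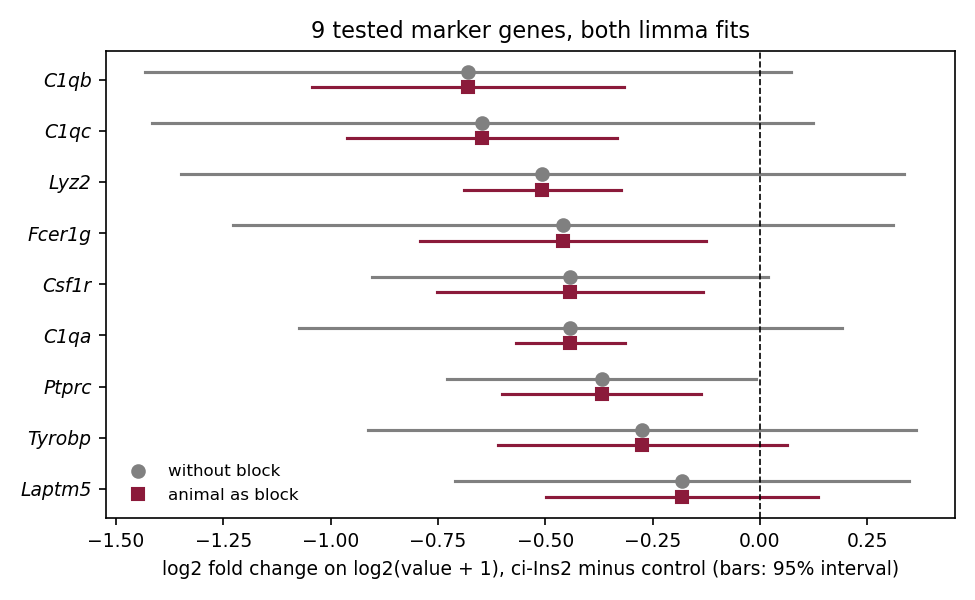
Log2 fold change of the 9 tested markers (ci-Ins2 minus control, on log2(value + 1)), with 95% intervals from limma without a block (grey circles) and with the animal as a block (dark red squares). The estimates are the same in both, and the interval of C1qa narrows from -1.07 to 0.19 without the block to -0.57 to -0.32 with it.

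The chains of C1q carried 51.3 to 54.3% of the summed level in every library. C1qa, the A chain, was measured at 12.6, 18.3 and 23.2 in the control libraries of animals 1, 2 and 3 and at 9.74, 13.7 and 16.6 in the ci-Ins2 libraries. The animals kept their order in both groups, and the groups overlapped. The ratios were nearly the same in the 3 animals, at 0.772, 0.746 and 0.716. The log2 fold change was -0.44 ± 0.27 (SE, n = 3 per group, limma adjusted p = 0.404), and -0.44 ± 0.05 with the animal as a block (limma adjusted p = 0.00689).

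C1qb, the B chain, gave 4.10, 4.13 and 6.39 in the controls and 1.37, 2.86 and 4.51 after the ci-Ins2 gapmeR. The ci-Ins2 library of animal 1 was far below all others, at 0.333 of its control, whereas animals 2 and 3 stood at 0.692 and 0.706. Its log2 fold change of -0.68 ± 0.32 (SE) was the most negative of the markers, and 1.77% of all names tested had a more negative one. The limma adjusted p was 0.287, and 0.0359 with the block.

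For C1qc, the C chain, the levels were 5.06, 5.53 and 8.01 in the controls and 2.19, 3.18 and 6.49 in the ci-Ins2 libraries. The reduction was graded over the animals, with ratios of 0.432, 0.576 and 0.810, and the ci-Ins2 library of animal 3 exceeded the controls of animals 1 and 2. The log2 fold change was -0.65 ± 0.32 (SE), with a limma adjusted p of 0.317, and 0.0286 with the block. C1qb, C1qc and C1qa are consecutive protein-coding genes on rat chromosome 5 in RefSeq's annotation of GRCr8, and each has 1 transcript in the deposited table.

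Lyz2 encodes lysozyme, an antibacterial enzyme of macrophages and granulocytes. Its level was 6.19, 12.9 and 10.7 in the controls of animals 1, 2 and 3 and 3.85, 8.57 and 8.51 in the ci-Ins2 libraries. Animal 1 was the low one in both groups and animal 2 the high one, unlike the other markers. The ratios were 0.623, 0.663 and 0.797, the log2 fold change was -0.51 ± 0.35 (SE), and the limma adjusted p was 0.474, or 0.0128 with the block.

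The blocked calls depended in part on single animals, since leaving out an animal leaves 2 pairs. C1qa was called without any of the 3 animals, with a limma adjusted p of 0.0175 to 0.0353. Without animal 1, C1qc (0.0740) and Lyz2 (0.0524) were no longer called. Without animal 2, C1qb (0.0644), C1qc (0.0921) and Lyz2 (0.0542) were not called while Csf1r was (0.0325). Without animal 3, C1qb, C1qc and Lyz2 stayed under the threshold and Fcer1g passed it (0.0134). With no filter on low values, and thus 21029 names in the adjustment, C1qa was the 1 marker called in the blocked comparison (limma adjusted p = 0.0302), where 2.93% of all names were called lower. On the names with a mean of at least 0.5, C1qa was not called without animal 2 (0.0523), C1qb was not called without any 1 of the animals (0.0666, 0.0909 and 0.0779), and C1qc (0.103 and 0.123) and Lyz2 (0.0747 and 0.0756) were not called without animal 1 or 2.

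Csf1r, the receptor for CSF1 and IL-34, stood at 3.58, 2.87 and 4.81 in the controls and at 1.85, 2.72 and 3.13 in the ci-Ins2 libraries. The difference was small in animal 2, with a ratio of 0.950, and larger in animals 1 (0.518) and 3 (0.651). Its log2 fold change was -0.44 ± 0.19 (SE), with a limma adjusted p of 0.262, and 0.0684 with the block. The value is the sum of 3 transcripts in the table.

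Ptprc encodes CD45, the phosphatase present on all leukocytes. Control levels were 1.57, 1.25 and 1.74, and ci-Ins2 levels were 0.797, 0.770 and 1.42. The ci-Ins2 libraries of animals 1 and 2 lay below every control, and that of animal 3 lay among them. The log2 fold change was -0.37 ± 0.15 (SE), and its 95% interval of -0.73 to -0.01 left out 0 before adjustment, with a limma adjusted p of 0.235, and 0.0530 with the block. Ptprc is the sum of 5 transcripts in the table.

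The signalling adaptors differed from each other. Tyrobp (DAP12) read 1.84, 2.91 and 4.60 in the controls and 2.12, 1.89 and 3.17 in the ci-Ins2 libraries. In animal 1 it was higher after the ci-Ins2 gapmeR, where 9 of 10 markers were lower. Its log2 fold change of -0.27 ± 0.27 (SE) did not differ from 0 in limma (adjusted p = 0.621, and 0.215 with the block).

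Fcer1g, the common gamma chain of Fc receptors, had levels of 4.33, 4.78 and 7.01 in the controls and of 2.75, 2.53 and 6.74 in the ci-Ins2 libraries. It was nearly level in animal 3 (ratio 0.961) and lower in animals 1 (0.636) and 2 (0.529). The log2 fold change was -0.46 ± 0.32 (SE), with a limma adjusted p of 0.478, and 0.0741 with the block.

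Lysosomal membrane proteins were the least abundant markers. Laptm5, found in leukocytes, gave 1.23, 0.882 and 1.54 in the controls and 0.578, 0.776 and 1.72 in the ci-Ins2 libraries. The highest library of all was thus the ci-Ins2 library of animal 3, and the log2 fold change of -0.18 ± 0.22 (SE) did not pass the test (limma adjusted p = 0.701, and 0.363 with the block). Cd68, a mucin-like protein of late endosomes, was at 0.628, 0.902 and 1.37 in the controls and at 0.369, 0.467 and 1.06 in the ci-Ins2 libraries. It was lower in all 3 animals, with ratios of 0.588, 0.518 and 0.772. On the names with a mean of at least 0.5, its log2 fold change was -0.30 ± 0.20 (SE), with a limma adjusted p of 0.483, and 0.0776 with the block.

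A second list held 27 other macrophage genes present in the table, of which 13 had a mean of at least 0.5 and a value above 0 in every library. All 13 had a geometric mean ratio under 1, and 12 were lower in all 3 animals, the exception being Fcgr2b. Of all gene names that met the same conditions, 20.7% were lower in all 3 animals. Among the listed genes that did not meet them, only Cx3cr1, Cd163 and Msr1 were lower in all 3 animals. Trem2 (ratios 1.59, 1.38 and 0.331) and Fcgr1a (0.471, 1.26 and 1.20) were higher in 2 animals. 9 of the 27 passed the filter of the test, and without the block 1 of them was called: Lgmn, a lysosomal cysteine protease not restricted to macrophages. Lgmn measured 217, 204 and 218 in the controls and 181, 184 and 178 in the ci-Ins2 libraries, so that the groups did not overlap. Its log2 fold change was -0.28 ± 0.04 (SE, limma adjusted p = 0.0190), and leaving out 1 library at a time gave adjusted p from 0.0486 to 0.0887. With the block it was 0.0110, and 0.0650 without animal 1.

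With the animal as a block, 5 of the 9 were called lower, against 10.3% of all names tested: Slc11a1, Ctss, Lgmn, Cybb and Fcgr3a. Slc11a1, a metal transporter of the phagosome, stood at 3.40, 3.02 and 4.80 in the controls and at 1.75, 1.45 and 2.81 in the ci-Ins2 libraries. Every animal gave a lower value, with a log2 fold change of -0.70 ± 0.20 (SE) and a limma adjusted p of 0.118, and 0.00410 with the block. It was called without any of the 3 animals (0.00745 to 0.0230). For Ctss (cathepsin S) the blocked adjusted p was 0.00948, for Cybb, the catalytic chain of the phagocyte oxidase, 0.0326, and for Fcgr3a, a low-affinity IgG receptor, 0.0340. Cybb was lost without animal 1, and Fcgr3a without animal 1 or animal 2, and without animal 3 neither gene passed the filter.

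Adgre1, Siglec1 and Aif1, common marker genes of tissue macrophages, also had lower values in each ci-Ins2 library than in its control. Siglec1 was named after its values were seen. Others of the same list, too low for the test, were not lower in every animal. Ratios were 0.375, 0.942 and 1.01 for Mrc1, 1.89, 0.546 and 0.559 for Folr2 and 0.949, 0.868 and 1.36 for Stab1. Adgre1, too low for the test, was at 0.839, 0.983 and 0.943 in the controls and at 0.311, 0.474 and 0.672 in the ci-Ins2 libraries. Siglec1 (CD169), also too low, gave 0.604, 0.985 and 1.41 against 0.259, 0.421 and 0.608. Aif1, which was tested, gave 4.46, 5.56 and 6.58 against 0.824, 4.73 and 4.28, with the ci-Ins2 library of animal 1 far below the others (limma adjusted p = 0.355, and 0.0888 with the block). Marco was listed at 0 in all libraries.

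**Figure D3:**
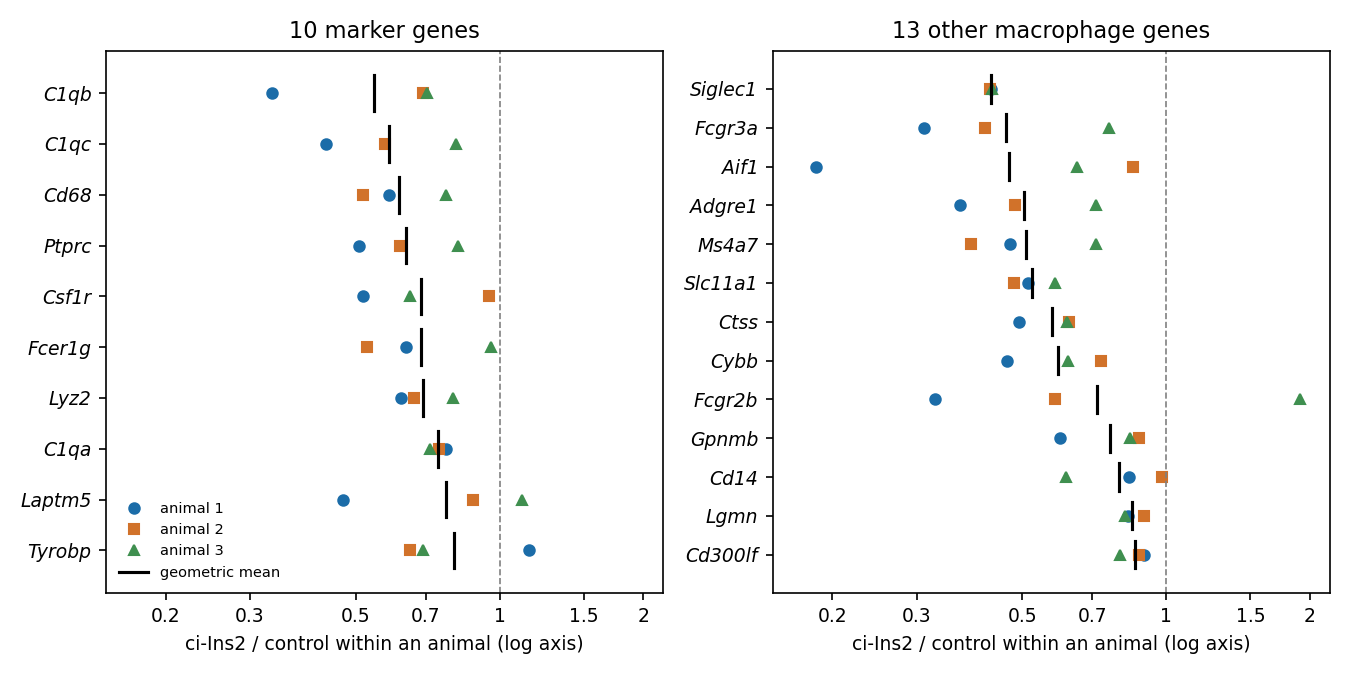
Ratio of the ci-Ins2 to the control library within each animal (log axis; circle, square and triangle for animals 1, 2 and 3; vertical bar for their geometric mean) for the 10 markers and for the 13 other macrophage genes with a mean of at least 0.5. Most points lie left of 1, and the geometric means run from 0.546 (C1qb) to 0.803 (Tyrobp) among the markers.

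Genes around the markers in their pathways did not all share the pattern. Of the CSF1 receptor ligands and signalling genes, 7 of 19 were tested and none was called by limma in either comparison (0 with an unadjusted p under 0.05 without the block and 3 with it). Csf1, the ligand of Csf1r, was measured at 12.6, 15.2 and 16.7 in the controls and at 12.9, 14.1 and 13.2 in the ci-Ins2 libraries, and Il34 was higher in all 3 ci-Ins2 libraries than in their controls, at 0.828, 0.817 and 0.292 against 0.885, 1.06 and 0.399. Of 11 myeloid transcription factors, 6 were tested and none was called by limma in either comparison (unadjusted p under 0.05 for 0 without the block and 1 with it). All 6 log2 fold changes were nevertheless negative, with a median of -0.18. Of the 7 factors with a mean of at least 0.5 and a value above 0 in every library, 5 were lower in all 3 animals. The share was 20.7% over all such names. Irf8, a defining gene of the list, had ratios of 0.566, 0.943 and 0.789. Spi1 (PU.1), the factor that defines the myeloid lineage, was at 0.140, 0.328 and 0.488 against 0.094, 0.208 and 0.297, lower in each animal but too low to be tested. Of 17 phagocyte oxidase and lysosomal enzyme genes, 16 were tested and none was called by limma in either comparison (unadjusted p under 0.05 for 0 and 5), with a median log2 fold change of -0.03. Most of the list are lysosomal enzymes, and its oxidase genes had lower values in most animals. Ncf1, a cytosolic subunit of the oxidase, was at 1.56, 3.34 and 5.62 in the controls and at 0.832, 1.92 and 5.44 in the ci-Ins2 libraries (limma adjusted p = 0.724, and 0.0794 with the block). The ratios of Cyba, the partner chain of Cybb, were 0.657, 1.02 and 0.706, and those of Ncf4, too low for the test, 0.424, 0.412 and 0.311.

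Among 18 complement genes other than C1q, 14 were tested. 1 was called lower without the block, Clu, a secreted chaperone that islet endocrine cells also make. It measured 3833, 3330 and 3466 in the controls against 2778, 2383 and 2891, a log2 fold change of -0.45 ± 0.08 (SE, limma adjusted p = 0.0337), and leaving out 1 library at a time gave 0.0516 to 0.119. With the block, 5 were called lower: C1s, Clu, Cfb, Serping1 and C2. Without animal 1 the blocked limma adjusted p of Clu, Cfb, Serping1 and C2 rose to 0.0517, 0.0517, 0.0550 and 0.0968, and C2 was also lost without animal 2 (0.0549). C1s, a protease that binds C1q, was at 13.8, 15.3 and 21.7 in the controls and at 5.99, 8.35 and 10.1 in the ci-Ins2 libraries, with no overlap. Its log2 fold change was -1.01 ± 0.22 (SE), with a limma adjusted p of 0.0568, and 0.00161 with the block, or at most 0.00685 when an animal was left out. Its partner C1r stood at 22.7, 31.8 and 29.2 against 22.0, 28.3 and 24.4 and was not called in either comparison (limma adjusted p = 0.544, and 0.0762 with the block). C1r and C1s are made by many cell types, and how much of their RNA came from macrophages was not measured.

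Genes of class II antigen presentation, which macrophages and dendritic cells express, were 11 in the table and 8 among the tested, with no call by limma without the block (1 unadjusted p under 0.05). RT1-Da, RT1-Ba and RT1-Bb, chains of rat class II molecules, were called lower with it (limma adjusted p = 0.0151, 0.0179 and 0.0479). RT1-Da was at 1.82, 3.32 and 3.90 in the controls and at 0.781, 1.88 and 2.84 in the ci-Ins2 libraries. Cd74, the invariant chain, gave 11.4, 19.0 and 23.1 against 10.2, 16.7 and 22.8. Without animal 1 none of the 3 was called (0.0593, 0.0671 and 0.0609), RT1-Da was also lost without animal 2 (0.0580), and without animal 2 or 3 RT1-Bb did not pass the filter. The animals kept their order for both RT1-Da and Cd74, as for C1qa, and the reduction of Cd74 was within the spread (limma adjusted p = 0.842, and 0.107 with the block).

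Secreted factors that macrophages can make went in both directions in these whole cell preparations. Of 24 in the table, 16 were tested and none was called by limma without the block (3 with an unadjusted p under 0.05). With it, Apoe, the lipid carrier, and Vegfa were lower and Lgals3 and Cxcl16 were higher. Vegfa and Cxcl16 were lost without animal 1 (0.167 and 0.110) or animal 2 (0.0729 and 0.0868). Apoe read 98.2, 144 and 180 in the controls of animals 1, 2 and 3 and 68.0, 109 and 145 in the ci-Ins2 libraries, the same order of animals as the sum of the markers. The limma adjusted p was 0.489, and 0.00518 with the block. Lgals3 (galectin-3), often used as a macrophage gene but also made by epithelial cells, went the other way, with 1034, 787 and 1065 in the controls and 1559, 1371 and 1892 in the ci-Ins2 libraries. These groups did not overlap, and the log2 fold change was 0.70 ± 0.15 (SE, limma adjusted p = 0.0515, and 0.00200 with the block).

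Several defining markers of lymphocytes, neutrophils and mast cells were at or near 0. Pan-leukocyte genes, which macrophages share, were not all so. Of 19 pan-leukocyte genes other than Ptprc, 7 were tested and none was called by limma without the block (1 with an unadjusted p under 0.05), and with it Fyb1 was lower (limma adjusted p = 0.00529) and Itgal higher (0.0421), the latter lost without any 1 animal (0.0995 to 0.119). Itgb2, the beta chain of leukocyte integrins, was at 1.05, 1.34 and 1.22 in the controls and at 1.16, 1.21 and 1.42 in the ci-Ins2 libraries. The other defining genes of the list were Cd53, with ratios of 0.672, 0.625 and 0.974, and Coro1a, with 0.981, 0.923 and 1.67. Fyb1 had a mean level of 34.4, against 1.26 for Ptprc, and the cells its RNA came from were not measured. Of 18 lymphocyte genes 4 were tested, and Cd5 was called higher in both comparisons (limma adjusted p = 0.0493, and 0.0181 with the block). Cd5 was lost when any 1 library was left out without the block (0.0790 to 0.146), and with the block it was lost without animal 1 (0.0751). Cd3e, part of the T cell receptor complex, did not exceed 0.062, and Nkg7 and Ms4a1 were listed at 0 in all 6 libraries. Other genes of the lymphocyte list were not near 0: Klrd1 ranged from 7.60 to 8.97, Ccl5 from 0.749 to 4.67 and Cd4, which rat macrophages also express, from 1.42 to 2.77, and none of these was called in either comparison. Of 18 genes of neutrophils, mast cells and dendritic cells, 6 were listed at 0 in all 6 libraries (S100a8, S100a9, Cpa3, Fcer1a, Xcr1 and Siglech). From those 18 genes only Kit was tested, and it was not called in either comparison.

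Markers of other islet and pancreatic cells did not all move alike. Of 13 endothelial genes 11 were tested, none was called by limma without the block (1 with an unadjusted p under 0.05), and their sum was 77.1 to 128 in the controls and 85.1 to 133 in the ci-Ins2 libraries. With the block Kdr, a receptor for VEGF, was lower (limma adjusted p = 0.0436, and 0.162 without animal 1 or 0.0965 without animal 3) and Ramp2, a receptor accessory protein that gave much of that sum, was higher (0.0145, and 0.0572 without animal 2). Of 12 stromal genes 11 were tested and none was called by limma without the block, nor had any an unadjusted p under 0.05. With it the collagens Col1a1, Col1a2 and Col3a1 were lower (limma adjusted p = 0.00954, 0.0120 and 0.00694), and the sum of the list was 366 to 824 against 282 to 754. Within animals 1, 2 and 3 the ci-Ins2 sum was 0.723, 0.915 and 0.770 of the control sum, so it was lower in each. In animal 2 the ratios of the 3 collagens were 0.857, 0.865 and 0.830. Of 8 ductal genes 5 were tested and 3 keratins, Krt19, Krt18 and Krt7, were higher in both comparisons, with a sum of 892 to 976 against 1075 to 1194 and no overlap. Leaving out 1 library gave limma adjusted p of 0.0271 to 0.0558 for Krt19, 0.0391 to 0.122 for Krt18 and 0.0548 to 0.160 for Krt7. Keratins of this kind are also found in endocrine cells of rodents. Pecam1, a defining endothelial marker, was not among the deposited gene names. No other defining marker of the endothelial, stromal or ductal list was at 0. The part of these shifts in the macrophage values was not tested.

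**Figure D4:**
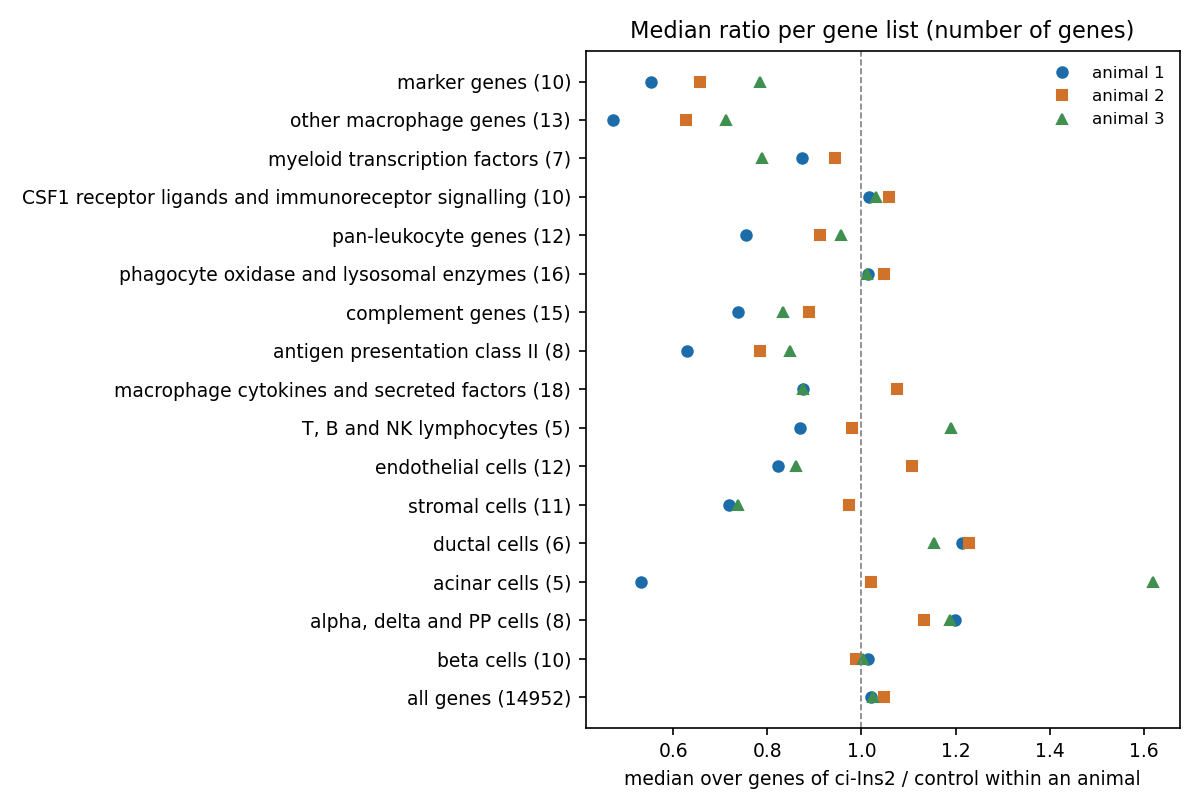
Median over the genes of each list (number of genes with a mean of at least 0.5 and a value above 0 in every library in parentheses) of the ratio of the ci-Ins2 to the control library, for animals 1, 2 and 3. The markers lie at 0.553, 0.657 and 0.785 and all genes at 1.02, 1.05 and 1.03.

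The medians per animal set the lists side by side. The markers had median ratios of 0.553, 0.657 and 0.785 in animals 1, 2 and 3, and the 13 other macrophage genes 0.472, 0.627 and 0.713. Beta cell genes were at 1.01, 0.988 and 1.00, stromal genes at 0.718, 0.974 and 0.738 and endothelial genes at 0.822, 1.11 and 0.860. In animal 2 the macrophage genes were thus lower while the stromal median was close to that of all genes (1.05). In animals 1 and 3 both medians were lower. The stromal sum was lower in animal 2 too, at a ratio of 0.915.

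The pattern over the 6 libraries was set by the animal as much as by the gapmeR. As a measure of likeness, the Pearson correlation over the 6 libraries was taken between log2(value + 1) of each gene and the mean of the tested markers, as a description of libraries that share animals. A correlation of at least 0.8 was found for 4.64% of the names tested, for 8 of 9 markers (which enter the mean), for 6 of 9 other macrophage genes, for 6 of 8 class II genes and for 0 of 11 endothelial and 0 of 11 stromal genes. It was found for 3 of 7 pan-leukocyte genes and 2 of 10 beta cell genes. Other lists tied to macrophages had few: 0 of 6 myeloid transcription factors, 1 of 7 CSF1 receptor ligands and signalling genes and 1 of 16 secreted factors. The 10 genes outside the markers, among names with a gene symbol, with the highest values were Krba1 (0.992), Rerg (0.988), Gdap1 (0.986), Dhx57 (0.985), Cybb (0.976), Acp5 (0.974), Sap25 (0.973), RT1-CE1 (0.972), Ppp3r1 (0.971) and Lonp2 (0.969). Cybb and Acp5, the tartrate-resistant acid phosphatase, are known from macrophages and osteoclasts. Several of the others shifted little: Lonp2 ranged from 64.1 to 67.7 over all libraries.

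Promoters of myeloid genes often carry the PU box, GAGGAA, to which PU.1 binds. In RefSeq's annotation of GRCr8, 7 of 10 markers had a promoter sequence, and the 250 bases before the start held GAGGAA or its reverse complement TTCCTC in 6 of them, against 23.3% of 33469 rat promoters of the same length. The promoters shown belong to the genes called lower with the block for which a sequence was at hand, and to Cd68, which was too low for the filter. Capitals mark GAGGAA or TTCCTC. On C1qb it occurred 247 and 90 bases before the start, on Lyz2 46 and on Cd68 27. On C1qa it did not occur in this window. A match is a description of the letters, and binding was not measured.
C1qa, GRCr8 chr5:154419934-154420183, minus strand: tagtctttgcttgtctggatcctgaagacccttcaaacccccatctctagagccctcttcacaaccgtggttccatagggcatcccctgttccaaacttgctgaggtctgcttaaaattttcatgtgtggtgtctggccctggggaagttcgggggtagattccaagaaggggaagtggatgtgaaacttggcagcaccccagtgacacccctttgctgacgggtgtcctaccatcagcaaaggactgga
C1qb, GRCr8 chr5:154407828-154408077, minus strand: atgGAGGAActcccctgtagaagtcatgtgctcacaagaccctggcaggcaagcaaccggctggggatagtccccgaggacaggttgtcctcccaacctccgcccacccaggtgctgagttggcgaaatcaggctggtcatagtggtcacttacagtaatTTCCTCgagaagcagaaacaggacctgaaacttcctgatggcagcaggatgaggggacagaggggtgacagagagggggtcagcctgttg
Lyz2, GRCr8 chr7:54798012-54798261, minus strand: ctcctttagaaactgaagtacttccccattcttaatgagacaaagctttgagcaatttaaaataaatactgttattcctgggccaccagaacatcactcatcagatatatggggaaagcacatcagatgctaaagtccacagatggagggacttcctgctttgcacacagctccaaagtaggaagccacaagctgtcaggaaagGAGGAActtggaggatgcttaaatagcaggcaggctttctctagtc
Cd68, GRCr8 chr10:54882442-54882691, minus strand: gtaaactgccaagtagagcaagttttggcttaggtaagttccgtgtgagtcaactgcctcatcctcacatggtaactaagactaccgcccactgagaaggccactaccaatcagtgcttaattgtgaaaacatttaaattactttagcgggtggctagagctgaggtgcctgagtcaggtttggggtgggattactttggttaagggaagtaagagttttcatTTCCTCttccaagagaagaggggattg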

How the data were processed

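Single-end reads of stranded poly-A libraries were mapped by the authors with STAR 2.5.3a to rat transcripts (rn6), whose abundance was estimated with RSEM 1.3.0, per the paper and the submitters' processing notes. The deposited signal per transcript is a relative abundance that sums to the same total in each library, 10 times that of TPM. The sources used here do not name its unit. It is not a count, so count tests do not apply, and the depth is unknown. The authors' tables of changed genes and pathways (log2 fold changes, p-values, fold enrichment) and of mouse circular RNAs were not used.

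After division by 10, the 40771 transcripts were summed to 28656 gene names. Names with at least 1 in 3 or more of 6 libraries (13927) were divided by median-of-ratios size factors (0.962 to 1.035) and tested with limma 3.58.1 in R 4.3.3 on log2(value + 1), with a trend of variance on mean. P-values were adjusted by Benjamini-Hochberg over all names tested, and calls were made at 0.05. The function was tested on simulated data. Printed levels are unscaled. Figures were drawn in Python 3.11.15 (pandas 2.3.3, matplotlib 3.10.9).

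The main comparison had no block, since the study's methods name none. The study's reporting summary states that one animal supplied every group within a replicate. In the data, deviations from the group means correlated at 0.462, 0.493 and 0.419 for same-numbered libraries and at -0.266 to -0.157 for the other pairs, so values with the animal as a block are given too. Alternatives were the pseudocount, the filter, size factors, the trend, the most abundant transcript and leaving out libraries. The filter on the mean, and the block with no filter, were chosen after seeing the data.

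Named genes were the markers, the defining genes of each list, at most 5 genes per leukocyte or macrophage list with the smallest p, genes called in either comparison, and the 10 most alike in pattern. Siglec1, Fcgr2b, Ncf4, Cd163, Msr1, Trem2, Fcgr1a, Mrc1, Folr2, Stab1 and most genes listed at 0 were named after their values were seen. Markers and lists were chosen with earlier results of these data known.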

Additional observations from a re-analysis of the deposited data

How the results depend on the processing

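All 224 alternative values of the 9 tested markers were negative. They reuse the same 6 libraries, and adding the block or dropping the trend leaves the estimate as it was, so they are not independent checks. Of the 224 values, 38 passed an adjusted p of 0.05 in limma, all with the animal as a block. No alternative without the block called a marker. With the replicate block, 4 markers were called lower, and 4 again without size factors or with a pseudocount of 0.1 or 5. A filter at 5 left 3 markers, all called lower, against 13.3% of 10241 names. Of these, C1qc reached 5 in its controls (5.06, 5.53 and 8.01) but not in the ci-Ins2 libraries of animals 1 and 2 (2.19 and 3.18). The filter on a mean of 0.5 gave 4, against 8.74% of names, and no filter 1, against 2.93%. Leaving out replicate 1, 2 or 3 from the blocked comparison gave 2 of 8, 2 of 9 and 5 of 7 markers. Of all names, 570 of 13586, 900 of 13590 and 936 of 13656 were then called lower. With the filter on the mean it gave 1, 0 and 4 of 10, against 468 of 15071, 536 of 15032 and 610 of 15092 names. Of the other markers, Csf1r and Fcer1g were called with the block in some comparisons that left out 1 replicate.

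Over all names tested, 488 were lower and 141 higher without the block and 1428 and 729 with it. With the block, the counts were 1122 and 1422 without size factors, which shift the median of all names by 0.04 on the log2 scale, 1366 and 845 with a filter at 5, 1407 and 712 with a pseudocount of 0.1, 1418 and 727 with a pseudocount of 5 and 1317 and 633 with the filter on the mean. With no filter and no block, 89 were higher. Leaving out 1 library gave 187 to 309 lower and 35 to 73 higher, and with the block, leaving out 1 replicate gave 570, 900 and 936 lower and 155, 292 and 368 higher, or 468 to 610 and 114 to 172 with the filter on the mean.

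The median log2 fold change of the markers was -0.57 with a pseudocount of 0.1 and -0.25 with 5, with or without the block, and -0.64 to -0.28 when 1 library was left out. With the block and without 1 replicate it was -0.59 to -0.40. The summed ratio moved by less than the spread between animals under every alternative run. Depth is unknown, and the low levels of Cd68, Ptprc and Laptm5 limit what these libraries can show for them.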
